A study of Mus musculus with 12 samples.

Results

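The 33 genes described here encode enzymes and regulators of cholesterol and fatty acid synthesis. They were chosen by gene symbol with no rule on measured values, but earlier results of these data were known at the time. Their expression was read in mouse dorsal root ganglia, which hold the cell bodies of sensory neurons. All 33 were listed among the 13178 genes of the AAV experiment and among the 21650 genes of the ribose experiment, and all 33 had a mean of at least 1 FPKM in both. The AAV list held no gene with a mean under 1 FPKM, whereas the ribose list went down to a mean of 0.00677 FPKM. FPKM is the number of sequenced fragments divided by transcript length and by library size, so that levels can be compared between genes. The AAV experiment compared mice that carried an adeno-associated virus with transketolase (AAV-TKT) and mice that carried the same kind of virus with green fluorescent protein (AAV-GFP), given through the sciatic nerve for 4 weeks. The ribose experiment compared mice given 10% ribose (Ribose) with mice given its vehicle (Vehicle). All mice were C57BL/6J, stated as 8 weeks old, all had a spinal cord injury, and sciatic ganglion neurons of levels L4-6 were taken 72 h after it. Each of the 4 groups held 3 libraries. The promoter of the viral transgene, the route and schedule of ribose, and whether a library pooled several mice are not stated in the sources used here. Nothing says that the 3 libraries of a group came from separate mice, so the p-values below measure only the spread between these libraries, which may be technical.

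Cholesterol is built from acetyl-CoA. The mevalonate steps make farnesyl diphosphate, squalene synthase joins a pair of these units, and squalene is then closed into lanosterol and trimmed to cholesterol. Fatty acid synthesis starts from the same acetyl-CoA, which ATP citrate lyase makes from citrate, and uses NADPH, a product of the oxidative pentose phosphate pathway. Elongases and desaturases then set chain length and the number of double bonds. The transcription factors encoded by Srebf1 and Srebf2 switch on most of these genes. Scap carries the precursors of both factors to the Golgi for cleavage, and Insig1 and Insig2 hold Scap in the endoplasmic reticulum when sterols are plentiful. In the peripheral nervous system, myelinating Schwann cells are the best known site of heavy lipid synthesis, and neurons also make cholesterol and fatty acids for their membranes.

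The sequences just upstream of 5 of these genes are shown so that letters of known control elements can be read beside the values. Cyp51, Lss and Elovl1 are the members whose values are discussed most, and Hmgcs1 and Insig1 are well known targets of the sterol-regulated factors, with windows that hold a sterol element and an E-box. Each is the 250 bases before a start of the gene in RefSeq (GRCm38.p6), written 5′ to 3′ on the strand of the gene. The GENCODE spans of Insig1, Cyp51 and Lss reach into these windows. RefSeq gave Elovl1 another window, not shown, that held none of the elements marked here in capitals. Capitals mark the sterol regulatory element TCACNCCAC, the E-box CACGTG and the NF-Y box CCAAT, read on both strands, so that a CCAAT on the other strand appears as ATTGG.
Hmgcs1 (chr13:119690101-119690350, plus strand): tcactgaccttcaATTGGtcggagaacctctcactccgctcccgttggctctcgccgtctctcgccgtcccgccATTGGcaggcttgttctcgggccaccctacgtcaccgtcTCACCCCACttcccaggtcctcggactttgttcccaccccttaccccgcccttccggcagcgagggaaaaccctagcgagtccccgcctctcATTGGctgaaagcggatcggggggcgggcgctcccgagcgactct
Insig1 (chr5:28071162-28071411, plus strand): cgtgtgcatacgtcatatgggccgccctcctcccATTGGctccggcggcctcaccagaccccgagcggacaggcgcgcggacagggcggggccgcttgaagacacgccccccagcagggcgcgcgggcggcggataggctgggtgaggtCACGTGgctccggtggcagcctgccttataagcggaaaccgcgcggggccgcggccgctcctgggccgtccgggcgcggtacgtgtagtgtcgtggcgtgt
Cyp51 (chr5:4104698-4104947, minus strand): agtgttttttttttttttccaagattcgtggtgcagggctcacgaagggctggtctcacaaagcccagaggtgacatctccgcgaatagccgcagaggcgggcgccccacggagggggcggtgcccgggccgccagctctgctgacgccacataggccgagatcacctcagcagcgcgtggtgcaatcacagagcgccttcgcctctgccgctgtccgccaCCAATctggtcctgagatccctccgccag
Lss (chr10:76531355-76531604, plus strand): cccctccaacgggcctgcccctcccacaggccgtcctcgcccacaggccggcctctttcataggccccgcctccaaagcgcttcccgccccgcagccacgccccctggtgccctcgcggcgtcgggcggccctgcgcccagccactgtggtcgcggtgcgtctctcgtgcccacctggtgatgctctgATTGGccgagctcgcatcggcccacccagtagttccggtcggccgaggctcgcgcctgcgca
Elovl1 (chr4:118427843-118428092, plus strand): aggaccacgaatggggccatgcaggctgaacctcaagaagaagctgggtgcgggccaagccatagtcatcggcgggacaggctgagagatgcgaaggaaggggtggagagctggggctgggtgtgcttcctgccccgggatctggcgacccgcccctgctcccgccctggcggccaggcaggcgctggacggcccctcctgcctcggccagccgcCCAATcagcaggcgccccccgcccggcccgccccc
RefSeq gave such a window for 27 of the 33 members. The sterol element TCACNCCAC was in the window of 1 of these 27 members, Hmgcs1, where it starts at position -137 from the gene's start, and in 1.23% of the 27025 genes with a window. Its shorter core CACCCCAC, which lies inside the longer element, was in 2 of 27 members, Acat2 and Hmgcs1, and in 2.98% of all genes. CACGTG was in 6 of 27 members (Dhcr7, Elovl5, Hsd17b7, Insig1, Sc5d and Scap) and in 6.86% of all genes. CCAAT, the box of NF-Y, a factor that works beside the sterol-regulated factors, was in 77.8% of the members and 37.5% of all genes. GGGCGG, the box of Sp1, which is not capitalised, was in 81.5% of the members and 35.4% of all genes. Several windows of 1 gene count once, and a match describes letters only. Only these exact letters were searched, so control elements with other letters are neither capitalised nor counted.

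The libraries were checked as a whole before the members were read. FPKM totals were 413635 to 456084 per library in the AAV experiment and 510551 to 551370 in the ribose experiment. Of these totals, 1 gene, Rn7s2, made 6.32% to 12.6% in the AAV experiment and 18.7% to 26.7% in the ribose experiment. Correlations between libraries on the log2(FPKM + 1) scale were 0.972 to 0.985 and 0.924 to 0.966, so the ribose libraries varied more. Read counts were not part of the tables used here. In the ribose table, the spacing of the lowest values gave relative depths of 0.745, 0.883 and 0.857 for Ribose replicates 1, 2 and 3, against 0.990, 1.21 and 1.31 for Vehicle, and 12 of 15 pairs of libraries matched these within 0.02 on the natural log scale. The same reading did not settle the depths of the AAV libraries, where 7 of 15 pairs matched. Tkt itself was at 222.6, 259 and 262 FPKM in AAV-TKT replicates 1, 2 and 3, against 106 (replicate 1), 101.7 (replicate 2) and 98.1 FPKM (replicate 3) in AAV-GFP (log2 difference 1.27, limma adjusted p = 0.0054). Neuron markers were the most abundant of the marker lists, with sums of 8458 to 9496 FPKM in AAV-TKT and 7098 to 8060 FPKM in AAV-GFP, and of 7440 to 8018 FPKM in Ribose and 7468 to 8836 FPKM in Vehicle, so the samples hold neurons, as labelled. Markers of glia and blood cells were present as well, and in such mixed samples fewer cells of a type and less RNA per cell cannot be told apart. Ribose replicate 2 had the lowest sums of neutrophil and red-cell markers (11.2 and 14.4 FPKM, against 164 and 209 FPKM in Vehicle replicate 2, the highest Vehicle library in both), so the results of the ribose experiment are also given without this pair of libraries.

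The pathway was expressed well above the typical gene of these ganglia. The median member had 41.9 FPKM in the AAV experiment and 46.2 FPKM in the ribose experiment, against 10.1 and 10.2 FPKM for all genes tested, and 32 of 33 members lay above the median gene in each. The exception was Idi1, the isomerase that makes the second building block of isoprenoids, with 4.99 ± 0.839 FPKM in AAV-TKT and 4.39 ± 0.109 FPKM in AAV-GFP (SD, n = 3 each). Scd2, a stearoyl-CoA desaturase that adds the first double bond to saturated fatty acids, had the highest level, with 361 ± 33.7 FPKM in AAV-TKT and 384 ± 13.5 FPKM in AAV-GFP (SD, n = 3 each), and with 379 ± 33.7 FPKM in Ribose and 419 ± 39.8 FPKM in Vehicle (SD, n = 3 each). Hmgcs1, the synthase of the second mevalonate step, came next, with 305 ± 17.9 FPKM in AAV-TKT and 300.0 ± 30.4 FPKM in AAV-GFP (SD, n = 3 each). It was followed in AAV-TKT and AAV-GFP by Scd1, the paralog of Scd2, then by Acly, the ATP citrate lyase, and Fdps, the farnesyl diphosphate synthase. Further down the order, neighbours were mostly not distinct. Of the 32 pairs of neighbours in the order of levels, the ranges over the 3 libraries were apart for 11 in AAV-TKT, 14 in AAV-GFP, 4 in Ribose and 3 in Vehicle. Some levels could include reads of other genes, since the strand setting of the counting is not stated: 18.3% of the exonic bases of Fdft1 overlap Ctsb on the other strand, and Acat2 shares 43.8% of its 31-base words with Acat3 and Acaca 31.7% with Gm5182.

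**Figure D1:**
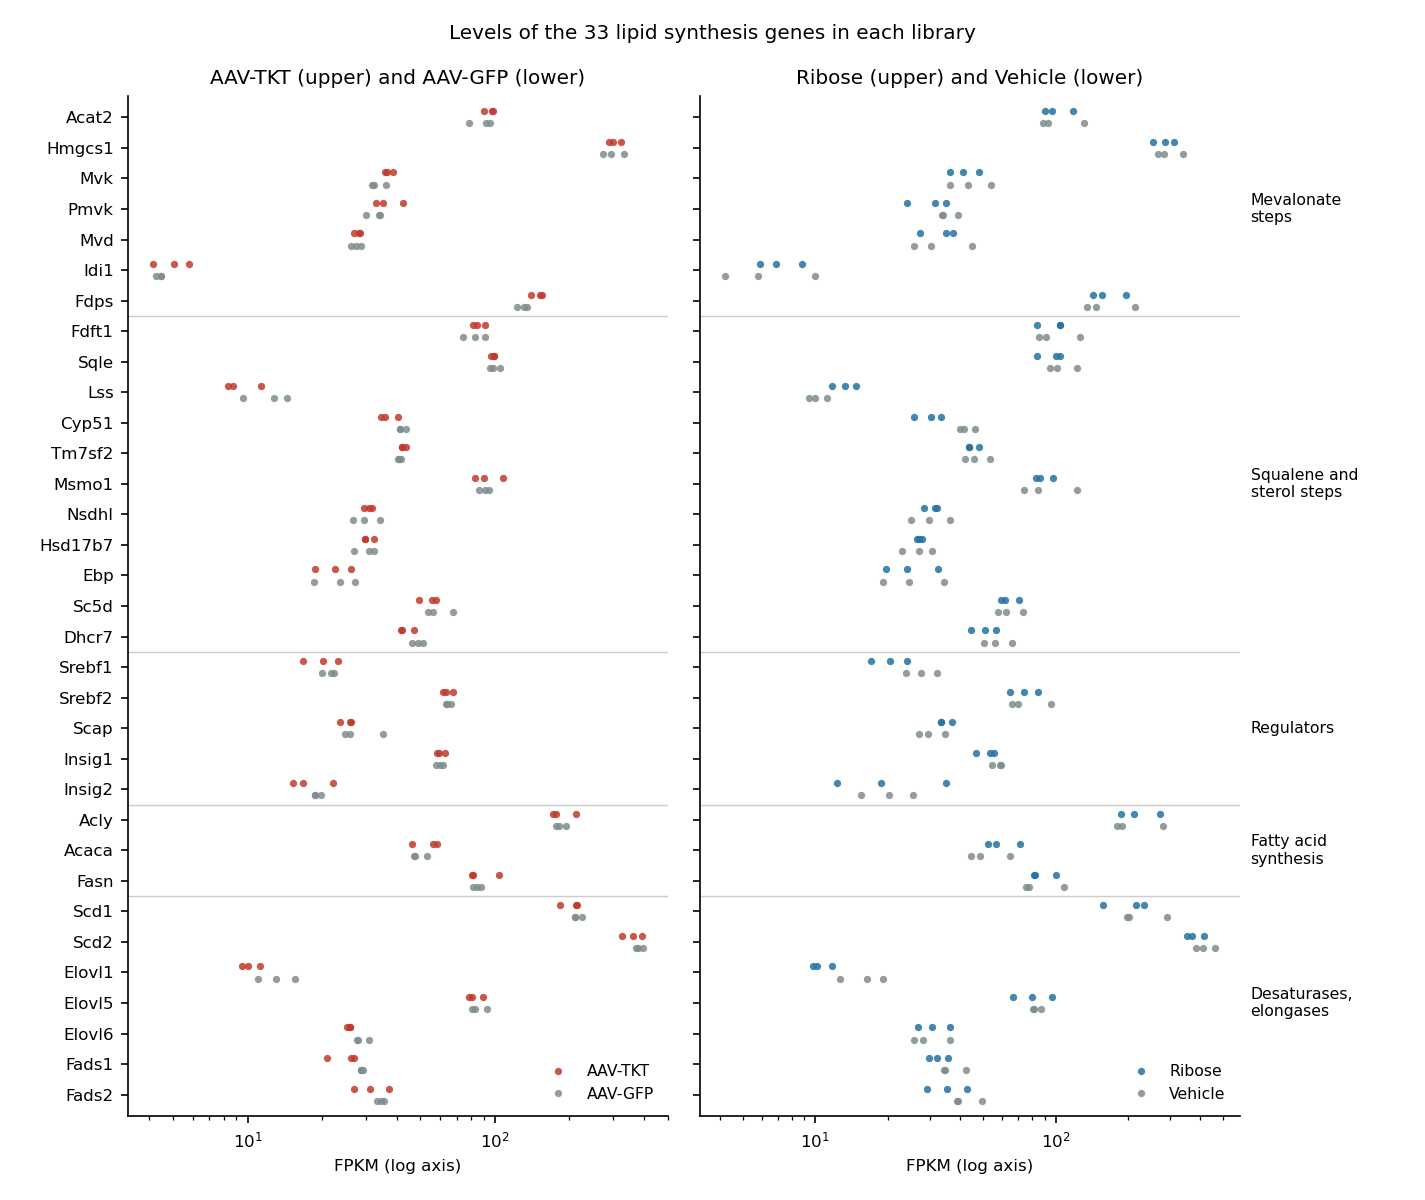
Level of each of the 33 genes (rows, grouped by role) in every library, in FPKM on a log axis; each point is 1 library, with AAV-TKT or Ribose in the upper row of a gene and AAV-GFP or Vehicle in the lower. Levels span from about the level of Idi1, with a mean of 4.39 FPKM in AAV-GFP, to that of Scd2, with 384 FPKM, and the libraries of the groups lie close together for most genes.

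Ratios between paralogs and partner enzymes held the same order in every library. Srebf2, whose product mainly drives cholesterol genes, stood above Srebf1, whose product mainly drives fatty acid genes, with a ratio of 3.25 ± 0.389 in AAV-TKT and 3.03 ± 0.140 in AAV-GFP, and of 3.73 ± 1.05 in Ribose and 2.86 ± 1.00 in Vehicle (SD, n = 3 each). Insig1 was above Insig2, with ratios of 2.70 to 4.12 in AAV-TKT and 3.08 to 3.22 in AAV-GFP, and of 1.52 to 3.81 in Ribose and 2.13 to 3.80 in Vehicle. Scd2 was above Scd1 by 1.69 to 1.83 times in AAV-TKT and 1.77 to 1.80 times in AAV-GFP, and by 1.58 to 2.22 times in Ribose and 1.58 to 2.05 times in Vehicle. Fasn, the fatty acid synthase, was above Acaca, the acetyl-CoA carboxylase that feeds it, by 1.43 to 1.78 times in AAV-TKT and 1.65 to 1.78 times in AAV-GFP, and by 1.15 to 1.92 times in Ribose and 1.56 to 1.75 times in Vehicle. The ranges of the compared groups overlapped for all 4 ratios in both experiments.

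The AAV experiment asks what raising transketolase, an enzyme of the non-oxidative pentose phosphate pathway, goes with in ganglia after injury. None of the 33 lipid synthesis genes passed the test. The limma test over all 13178 genes called 0 members and 0.0152% of all genes at an adjusted p under 0.05. At an unadjusted p under 0.05, 1 member was higher in AAV-TKT (Fdps) and 3 were lower (Elovl1, Cyp51 and Elovl6), set against 6.22% of all genes higher and 4.36% lower. The libraries of the groups did not overlap for 2 members that were higher (Fdps and Tm7sf2), against 11.3% of all genes, and for 3 that were lower (Cyp51, Fads1 and Elovl6), against 7.2% of all genes. These shares are close to the background, which leaves no result about the set as a whole. The median log2(FPKM + 1) difference, AAV-TKT minus AAV-GFP, was -0.0092 over the 33 members, of which 16 were positive, and 0.014 over all genes. For 30 of 33 members the difference was within 0.2 either way, as it was for 10142 of 13178 genes.

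The 7 enzymes of the mevalonate steps all had a positive difference, with a median of 0.14, although none passed the test. Fdps, which joins isoprenoid units into farnesyl diphosphate, had 152, 156 and 139.9 FPKM in AAV-TKT replicates 1, 2 and 3, against 136, 131 and 123.2 FPKM in AAV-GFP. The AAV-TKT values were all above the AAV-GFP values, and the log2 difference was 0.20 (SE 0.0734, 95% interval 0.025 to 0.37), with an unadjusted limma p of 0.0298 and an adjusted p of 0.432. Of its exonic bases, 26.7% are shared on the same strand with the predicted gene Gm43738, and its sequence is shared in part with processed pseudogenes, so its level is less certain than that of its neighbours. Mvk, the mevalonate kinase, had 38.8, 36.7 and 36.1 FPKM in AAV-TKT replicates 1, 2 and 3, against 36.4, 32.0 and 32.5 FPKM in AAV-GFP. Its lowest AAV-TKT library was just under the highest AAV-GFP library, and the log2 difference was 0.14 (SE 0.0741, 95% interval -0.030 to 0.32). Pmvk, the phosphomevalonate kinase, had 42.4, 33.1 and 35.4 FPKM in AAV-TKT replicates 1, 2 and 3, against 34.2, 30.1 and 34.0 FPKM in AAV-GFP, and its groups overlapped, with replicate 1 the highest in AAV-TKT. The other enzymes were Acat2, which condenses acetyl-CoA at the entry (log2 difference 0.11), Hmgcs1 (0.028), Mvd, the mevalonate diphosphate decarboxylase (0.019), and Idi1 (0.14), and their groups overlapped. The 7 positive signs depended on the scaling. With quantile normalization, or with column totals made equal over all genes but Rn7s2, 5 of the 7 were positive and 2 negative. With median-of-ratios scaling or weights per library it was 6 and 1, and without AAV-GFP replicate 3 it was 5 and 2. Without AAV-TKT replicate 1 it was 6 and 1 with a median of 0.062, and the median was 0.052 with weights per library.

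The 11 enzymes from squalene to cholesterol were split, with 5 positive and 6 negative differences and a median of -0.018. This split depended on the scaling and on single libraries. With column totals equal over all genes but Rn7s2 it was 1 positive and 10 negative. With quantile normalization or without AAV-GFP replicate 3 it was 2 and 9, and without AAV-GFP replicate 1 or 2 it was 6 and 5. Cyp51, the lanosterol demethylase of the cytochrome P450 family, had 40.6, 35.8 and 34.5 FPKM in AAV-TKT replicates 1, 2 and 3, against 43.7, 41.4 and 41.5 FPKM in AAV-GFP. All 3 AAV-TKT libraries were below all 3 AAV-GFP libraries, and the log2 difference was -0.19 (SE 0.0780, 95% interval -0.37 to -0.0082), with an unadjusted limma p of 0.0426 and an adjusted p of 0.466. Lss, the cyclase that folds squalene epoxide into lanosterol, had 11.3, 8.32 and 8.68 FPKM in AAV-TKT replicates 1, 2 and 3, against 9.57, 14.4 and 12.8 FPKM in AAV-GFP. AAV-TKT replicate 1 lay within the AAV-GFP range, and the log2 difference of -0.34 (SE 0.164, 95% interval -0.72 to 0.047) was the least precise of the members, with an adjusted p of 0.501. Dhcr7, the reductase that makes cholesterol in the last step of the Kandutsch-Russell branch, had 41.8, 42.2 and 47.2 FPKM in AAV-TKT replicates 1, 2 and 3, against 46.2, 51.4 and 49.0 FPKM in AAV-GFP. Here the highest AAV-TKT library was above the lowest AAV-GFP library, and the log2 difference was -0.16 (SE 0.0763, 95% interval -0.34 to 0.021). Tm7sf2, a sterol reductase, was the most precisely measured member, with 41.9, 42.3 and 43.8 FPKM in AAV-TKT replicates 1, 2 and 3, against 40.8, 41.8 and 40.7 FPKM in AAV-GFP. The AAV-TKT libraries were all above the AAV-GFP libraries, by a log2 difference of 0.052 (SE 0.0586, 95% interval -0.085 to 0.19), and 12.1% of its exonic bases are shared with Vps51 on the same strand. The remaining 7 enzymes overlapped between the groups. They were Fdft1, the squalene synthase (0.051), Sqle, the squalene epoxidase and a flux-limiting step (-0.018), Msmo1, the sterol methyl oxidase (0.042), Nsdhl (0.038) and Hsd17b7 (0.028), a dehydrogenase and a ketoreductase of the same demethylation, Ebp, the sterol isomerase (-0.037), and Sc5d, the sterol desaturase (-0.12).

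Of the regulators, 1 had a positive and 4 a negative difference, and 0 passed the test. Without AAV-TKT replicate 2 it was 3 positive and 2 negative. All 5 were negative with median-of-ratios scaling, quantile normalization, weights per library or totals equal without Rn7s2, and without AAV-GFP replicate 3. Srebf2 had a log2 difference of -0.0092 (95% interval -0.16 to 0.14) and Insig1, itself a target of the pathway, of 0.0095 (-0.14 to 0.16), both narrow. Srebf1 had 23.1, 16.8 and 20.1 FPKM in AAV-TKT replicates 1, 2 and 3, against 22.3, 21.7 and 20.0 FPKM in AAV-GFP, and its groups overlapped with a log2 difference of -0.10 (SE 0.116, 95% interval -0.37 to 0.17). Scap had 23.6, 26.0 and 26.1 FPKM in AAV-TKT replicates 1, 2 and 3, against 26.0, 35.3 and 24.8 FPKM in AAV-GFP. Its AAV-GFP replicate 2 was high and the other 5 libraries were close together, with a log2 difference of -0.16 (SE 0.132, 95% interval -0.47 to 0.15). Insig2 had 15.2, 22.1 and 16.8 FPKM in AAV-TKT replicates 1, 2 and 3, against 19.8, 18.7 and 18.7 FPKM in AAV-GFP, and the AAV-TKT libraries lay on both sides of the AAV-GFP range with a log2 difference of -0.093 (SE 0.129, 95% interval -0.40 to 0.21).

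In fatty acid synthesis, the 3 enzymes of the core route had positive differences whose intervals all include 0, and all 3 were negative with weights per library and 2 of 3 with quantile normalization. They were 0.022 for Acly (-0.20 to 0.25), 0.11 for Acaca (-0.13 to 0.35) and 0.056 for Fasn (-0.19 to 0.30). Their groups overlapped. The 7 desaturases and elongases all had negative differences in AAV-TKT, with a median of -0.13, and 0 of 7 passed the test. With weights per library, and without AAV-GFP replicate 2, 6 were negative and 1 positive, and the median was -0.030 without AAV-TKT replicate 2. Elovl1, an elongase of saturated very long chain fatty acids, had 11.2, 9.99 and 9.48 FPKM in AAV-TKT replicates 1, 2 and 3, against 11.0, 13.0 and 15.5 FPKM in AAV-GFP. AAV-TKT replicate 1 lay just above the lowest AAV-GFP library, and the log2 difference was -0.33 (SE 0.126, 95% interval -0.62 to -0.033), with an unadjusted limma p of 0.0337 and an adjusted p of 0.444. Elovl6, which extends palmitate to stearate, had 25.8, 25.2 and 25.8 FPKM in AAV-TKT replicates 1, 2 and 3, against 27.7, 30.9 and 27.8 FPKM in AAV-GFP. Its AAV-TKT libraries were nearly equal and all below AAV-GFP, with a log2 difference of -0.16 (SE 0.0689, 95% interval -0.32 to -0.0022). Fads1, the delta-5 desaturase of polyunsaturated fatty acids, had 26.2, 21.0 and 27.0 FPKM in AAV-TKT replicates 1, 2 and 3, against 28.8, 28.7 and 29.2 FPKM in AAV-GFP. The groups did not overlap, AAV-TKT replicate 2 was the lowest, and the log2 difference was -0.22 (SE 0.0994, 95% interval -0.46 to 0.0094). The others overlapped between the groups, with log2 differences of -0.084 for Scd1, -0.092 for Scd2, -0.046 for Elovl5, an elongase of polyunsaturated fatty acids, and -0.13 for Fads2, the partner desaturase of Fads1. Markers of myelinating Schwann cells, of which 10 of 11 were listed and 0 passed the test, were lower beside these genes. Their summed level, led by Pmp22, was 331 to 358 FPKM in AAV-TKT and 383 to 412 FPKM in AAV-GFP. Of the differences, 10 of 10 were negative, with a median log2 difference of -0.28. For 4 of 10 the libraries were lower without overlap, against 7.2% of all genes. Satellite glia markers had 4 of 5 negative differences with a median of -0.37, 0 of which passed the test, and their sums overlapped (200.4 to 295 FPKM in AAV-TKT and 250.1 to 347 FPKM in AAV-GFP). The part of both cell types in the result was not tested.

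**Figure D2:**
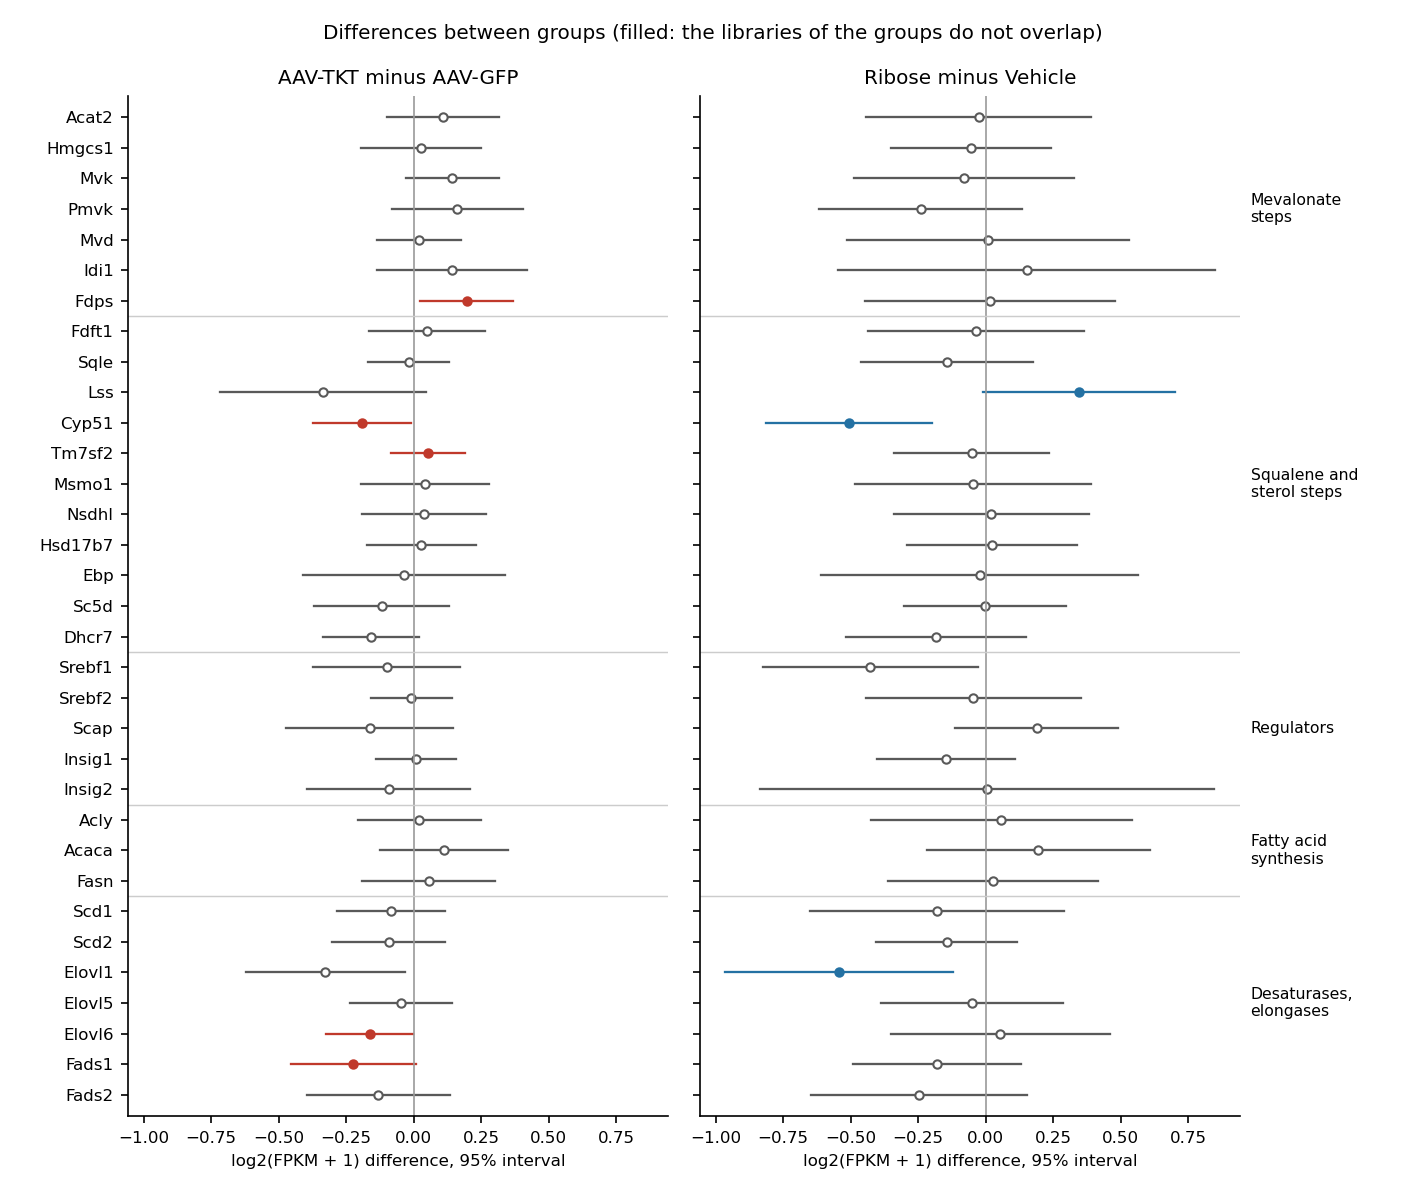
Log2(FPKM + 1) difference of each of the 33 genes (points) with its 95% limma interval (lines), AAV-TKT minus AAV-GFP on the left and Ribose minus Vehicle on the right; filled points mark genes whose libraries do not overlap between the groups. The AAV differences lie between -0.34 and 0.20 and the ribose differences between -0.54 and 0.34, with wider intervals in the ribose experiment.

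The ribose experiment asks what 10% ribose, a pentose sugar, goes with in ganglia after the same injury. Again 0 of 33 members passed the limma test, which called 0.00724% of all 13804 genes. At an unadjusted p under 0.05, 0 members were higher in Ribose, against 2.8% of all genes, and 3 were lower (Cyp51, Elovl1 and Srebf1), against 1.99% of all genes. Groups did not overlap for 1 member that was higher, Lss, against 4.28% of all genes, and for 2 that were lower, Cyp51 and Elovl1, against 5.35% of all genes. The median log2 difference, Ribose minus Vehicle, was -0.045 over the members, with 12 positive and 21 negative, and -0.023 over all genes, of which 44.8% were positive. Differences were within 0.2 either way for 27 of 33 members and for 8711 of 13804 genes. The median was 0.066 without Vehicle replicate 2, with 21 positive members, and 0.033 without Ribose and Vehicle replicate 2 both, with 18 positive, so its sign rests on single libraries.

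Cyp51 was the member with the smallest p in this experiment, with 33.3, 25.8 and 30.3 FPKM in Ribose replicates 1, 2 and 3, against 41.6, 40.0 and 46.2 FPKM in Vehicle. Every Ribose library lay below every Vehicle library. Its mean was 29.8 ± 3.77 FPKM in Ribose and 42.6 ± 3.25 FPKM in Vehicle (SD, n = 3 each), and the log2 difference was -0.51 (SE 0.132, 95% interval -0.82 to -0.20), with an unadjusted limma p of 0.00589 and an adjusted p of 0.874. Without replicate 2 of both groups the log2 difference was -0.45 (95% interval -0.77 to -0.13), and it lay between -0.59 and -0.41 when any 1 library was left out. In the other direction, Lss had 13.3, 11.7 and 14.8 FPKM in Ribose replicates 1, 2 and 3, against 9.40, 11.2 and 9.98 FPKM in Vehicle. All Ribose libraries were above all Vehicle libraries, with a log2 difference of 0.34 (SE 0.152, 95% interval -0.011 to 0.70), an unadjusted limma p of 0.0557, and a value of 0.49 without replicate 2 of both groups. Dhcr7 had 50.7, 56.3 and 44.5 FPKM in Ribose replicates 1, 2 and 3, against 56.1, 66.1 and 50.3 FPKM in Vehicle, with overlapping groups and a log2 difference of -0.18 (SE 0.142, 95% interval -0.52 to 0.15). The other 8 enzymes of the squalene and sterol steps had log2 differences of -0.14 for Sqle and from -0.051 (Tm7sf2) to 0.024 (Hsd17b7) for the rest, and overlapped.

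Mevalonate enzymes had 3 positive and 4 negative differences in the ribose experiment, with a median of -0.026. Their signs turned with single libraries, from 6 positive and 1 negative without Vehicle replicate 2 or Ribose replicate 3 to 7 negative without Vehicle replicate 3. Pmvk had 31.6, 35.2 and 24.1 FPKM in Ribose replicates 1, 2 and 3, against 33.6, 39.4 and 34.0 FPKM in Vehicle, and Ribose replicate 3 was the only library clearly below the others, for a log2 difference of -0.24 (SE 0.161, 95% interval -0.62 to 0.14). Idi1, at low levels, had 8.78, 6.89 and 5.92 FPKM in Ribose replicates 1, 2 and 3, against 10.0, 5.77 and 4.20 FPKM in Vehicle, a spread within each group that gave an interval of -0.55 to 0.85 around a log2 difference of 0.15. Mvk had a log2 difference of -0.080 (95% interval -0.49 to 0.33). For Hmgcs1 the libraries were at 287, 313 and 254 FPKM in Ribose replicates 1, 2 and 3, against 268, 338 and 282 FPKM in Vehicle, overlapping over nearly their whole range. Its log2 difference was -0.055 (SE 0.126, 95% interval -0.35 to 0.24). Fdps, which had the smallest p of the mevalonate enzymes in the AAV experiment, had 156, 197 and 143 FPKM in Ribose replicates 1, 2 and 3, against 147, 214 and 135 FPKM in Vehicle and a log2 difference of 0.017 (SE 0.198, 95% interval -0.45 to 0.48), with replicate 2 the highest in both groups.

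Among the regulators, Srebf1 had 24.1, 17.1 and 20.4 FPKM in Ribose replicates 1, 2 and 3, against 32.1, 23.9 and 27.7 FPKM in Vehicle. Ribose replicate 1 was just above the lowest Vehicle library, so the groups overlapped by 1 library, and the log2 difference was -0.43 (SE 0.170, 95% interval -0.82 to -0.028), with an unadjusted limma p of 0.0391. It was -0.41 without replicate 2 of both groups. Its partner Srebf2 had 73.8, 84.6 and 65.0 FPKM in Ribose replicates 1, 2 and 3, against 70.0, 96.1 and 66.2 FPKM in Vehicle, overlapping, with a log2 difference of -0.045 (SE 0.170, 95% interval -0.44 to 0.35). Scap had 33.4, 33.5 and 37.2 FPKM in Ribose replicates 1, 2 and 3, against 27.1, 34.6 and 29.5 FPKM in Vehicle and a log2 difference of 0.19 (SE 0.129, 95% interval -0.11 to 0.49), while Insig1 had 52.0 ± 4.51 FPKM in Ribose and 57.6 ± 2.69 FPKM in Vehicle (SD, n = 3 each) and one of -0.15 (SE 0.109, 95% interval -0.40 to 0.11). Insig2 was the most variable member, with 18.8, 35.1 and 12.3 FPKM in Ribose replicates 1, 2 and 3, against 25.6, 20.4 and 15.6 FPKM in Vehicle, and Ribose held both its highest and its lowest library.

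Acly, Acaca and Fasn had positive differences in Ribose as well (0.059, 0.20 and 0.027), with overlapping groups. Without Ribose replicate 2, Vehicle replicate 1 or Vehicle replicate 3 in turn, 1 was positive and 2 were negative. Of these Acaca had 71.2, 52.6 and 56.4 FPKM in Ribose replicates 1, 2 and 3, against 44.5, 64.5 and 48.6 FPKM in Vehicle, and Ribose replicate 1 was the highest library. Its log2 difference was 0.069 without Ribose replicate 1, 0.35 without Vehicle replicate 2, and 0.44 (95% interval 0.068 to 0.81) without replicate 2 of both groups. Desaturases and elongases had 6 of 7 negative differences, with a median of -0.18. The median was -0.072 without Vehicle replicate 2, -0.090 without Ribose replicate 3, -0.24 without Ribose replicate 1, and -0.081 without replicate 2 of both groups. Elovl1 had 10.2, 11.8 and 9.84 FPKM in Ribose replicates 1, 2 and 3, against 12.7, 19.1 and 16.4 FPKM in Vehicle. No Ribose library reached the lowest Vehicle library, and the log2 difference was -0.54 (SE 0.180, 95% interval -0.97 to -0.12), with an unadjusted limma p of 0.0183 and an adjusted p of 0.97. Without replicate 2 of both groups it was -0.49 (95% interval -0.97 to -0.0031). Fads2 had 43.0, 29.2 and 35.5 FPKM in Ribose replicates 1, 2 and 3, against 39.0, 39.2 and 49.4 FPKM in Vehicle (log2 difference -0.25), and Fads1 a log2 difference of -0.18 (SE 0.133, 95% interval -0.49 to 0.13), both with overlapping groups. Scd1, Scd2 and Elovl5 had log2 differences of -0.18, -0.14 and -0.050, and Elovl6, the positive one, of 0.055. Markers of myelinating Schwann cells were again lower in sum beside these genes, with 417 to 443 FPKM in Ribose and 478 to 531 FPKM in Vehicle. Of 10 tested differences 8 were negative, with a median of -0.23 and 0 calls. The groups did not overlap for 1 of the 10, which was lower, against 5.35% of all genes. Satellite glia markers had 5 of 5 negative differences with a median of -0.68, 0 calls and overlapping sums of 155 to 354 FPKM in Ribose and 254 to 516 FPKM in Vehicle. The part of both cell types in the result was not tested.

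The experiments share no libraries, so their values can be set side by side. Of the 33 members, 13 were negative in both, 8 positive in both and 12 of opposite sign. Cyp51 was the only member whose treated libraries lay below all controls in both experiments, which was so for 0.35% of the 12853 genes tested in both. Its difference was larger in size in the ribose experiment, but the difference between the effects, (AAV-TKT minus AAV-GFP) minus (Ribose minus Vehicle), was 0.32 (SE 0.149, 95% interval -0.011 to 0.64), with an unadjusted limma p of 0.0572 and an adjusted p of 0.741. The gene lies on chromosome 5 (4081145 to 4104746, minus strand, GRCm38), and 3.76% of its exonic bases overlap Akap9 on the other strand. Lss, the enzyme directly before Cyp51 in the pathway, had the smallest p for a difference between the experiments, with -0.68 (SE 0.228, 95% interval -1.18 to -0.18), an unadjusted limma p of 0.0118 and an adjusted p of 0.669. In the main fit it was the only member with an unadjusted p under 0.05 for that contrast, against 6.85% of all genes, and 0 members and 0.00778% of genes were called. With a replicate block there were 3 (Pmvk, Cyp51 and Lss), against 1272 of 12853 genes. Pmvk then had a smaller unadjusted limma p (0.0206) than Lss (0.0348). Without replicate 2 of Ribose and Vehicle there were also 3 (Lss, Scap and Pmvk), against 1718 genes. The value of Lss was then -0.83 (adjusted p = 0.209). Without Vehicle replicate 2 alone there were 4, against 1407 genes. Lss lies on chromosome 10 (76531588 to 76557138, plus strand), and an antisense gene, 4930483K19Rik, covers 3.53% of its exonic bases. Elovl1, on chromosome 4 (118428093 to 118432953, plus strand), was negative in both experiments and in all 14 and 15 settings tried for each, as were Cyp51, Dhcr7, Fads1, Fads2, Scd1 and Scd2. Some of these settings, the replicate block and the filters, cannot turn a sign. The median difference between the effects was 0.036 over the members and 0.053 over all genes.

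**Figure D3:**
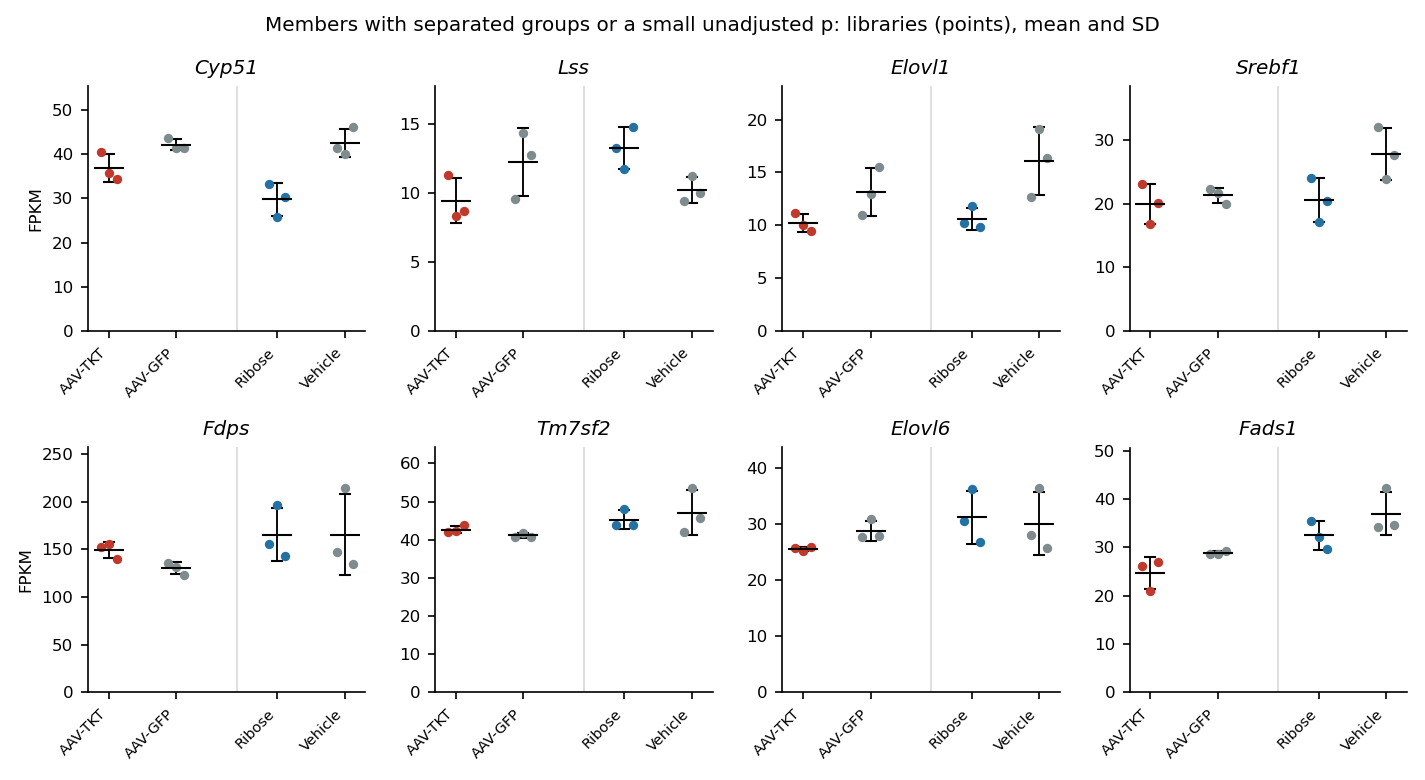
FPKM of 8 members in every library (points) with the group mean (long bar) and SD (whiskers), AAV-TKT, AAV-GFP, Ribose and Vehicle from left to right. Cyp51 is lower in the treated group of both experiments, with means of 36.9 FPKM in AAV-TKT and 42.2 FPKM in AAV-GFP, and of 29.8 FPKM in Ribose and 42.6 FPKM in Vehicle, while Lss is lower on average in AAV-TKT and higher in Ribose.

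How small a difference could be seen varied by experiment. The median SD within groups on the log2 scale was 0.121 for the members and 0.128 for all genes in the AAV experiment, and 0.221 and 0.257 in the ribose experiment. The 95% intervals of the members reached 0.137 (Tm7sf2) to 0.383 (Lss) to either side in the AAV experiment, with a median of 0.222. In the ribose experiment they reached 0.255 (Insig1) to 0.841 (Insig2), with a median of 0.398. The whole interval lay within 0.5 of 0 for 31 of 33 members in the AAV experiment and for 19 of 33 in the ribose experiment, so a log2 difference above that size is outside the interval for these genes.

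Much of the spread was shared between members. Vehicle replicate 2 was the highest Vehicle library for 25 of 33 members and for 15 of 18 cholesterol enzymes, against 40.0% of all genes. Ribose replicate 3 was the lowest Ribose library for 25 of 33 members, against 35.7% of all genes, and AAV-GFP replicate 3 was the lowest of its group for 21 of 33, against 40.8%. The summed level of the 18 cholesterol enzymes was 1265, 1333 and 1101 FPKM in Ribose replicates 1, 2 and 3, against 1171 (replicate 1), 1542 (replicate 2) and 1165 FPKM (replicate 3) in Vehicle. In the AAV experiment it was 1252, 1196 and 1172 FPKM in AAV-TKT, against 1180.2, 1253 and 1100.5 FPKM in AAV-GFP. The groups overlapped in both experiments, and Vehicle replicate 2 stood above the other 11 libraries. The 10 fatty acid enzymes summed to 1216, 1206 and 1016 FPKM in Ribose, against 1079.8, 1427 and 1141 FPKM in Vehicle, and to 1125, 1025 and 1062 FPKM in AAV-TKT, against 1103, 1148 and 1077 FPKM in AAV-GFP. Vehicle replicate 2 also had the highest neutrophil sum of the Vehicle libraries (164 FPKM, others 28.9 and 32.2 FPKM) and the lowest satellite glia sum (254 FPKM, others 422 and 516 FPKM). Ribose replicate 2 had the lowest satellite glia sum of its group (155 FPKM, others 354 and 312 FPKM). In the AAV experiment, neutrophil markers summed to 19.6 to 31.05 FPKM in AAV-TKT and 95.3 to 257 FPKM in AAV-GFP, red-cell markers to 71.5 to 94.2 FPKM in AAV-TKT and 113 to 471 FPKM in AAV-GFP, and the 3 of 7 macrophage markers that were listed to 9.98 to 13.7 FPKM in AAV-TKT and 28.3 to 40.1 FPKM in AAV-GFP. Fibroblast sums overlapped (23.7 to 28.8 FPKM in AAV-TKT and 26.1 to 55.0 FPKM in AAV-GFP), as they did in the ribose experiment (16.0 to 51.0 FPKM in Ribose and 31.6 to 32.6 FPKM in Vehicle). Adipocytes, another lipid-making cell, left little trace. Of 6 adipocyte markers 1 was listed in the AAV table and 2 in the ribose table, with sums of 1.42 to 2.71 FPKM in AAV-TKT and 3.09 to 3.32 FPKM in AAV-GFP, and of 0.768 to 3.00 FPKM in Ribose and 0.827 to 3.71 FPKM in Vehicle. Neither table listed Adipoq, Lep, Cidec or Retn. Since the AAV table held no gene with a mean under 1 FPKM, a marker not listed there may have been low and not absent. Endothelial markers were not listed in the AAV table and summed to 2.42 to 8.93 FPKM in Ribose and 4.58 to 8.25 FPKM in Vehicle. The part of these cell types in the members' values was not tested.

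**Figure D4:**
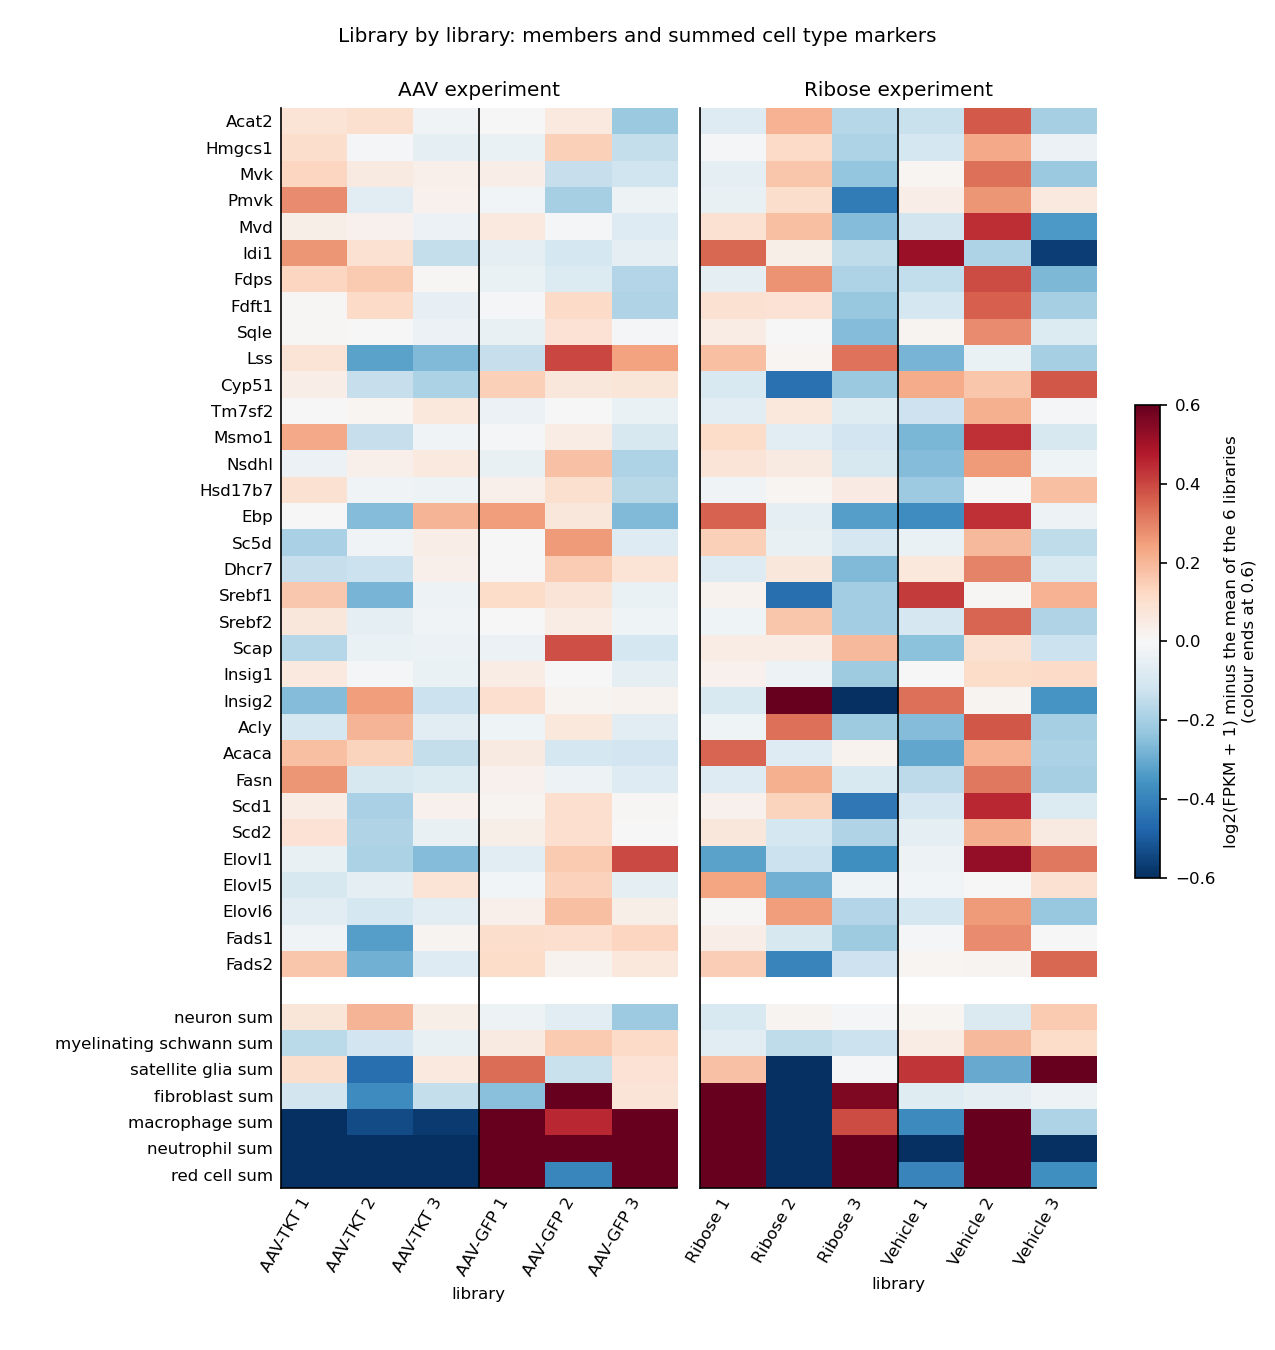
Log2(FPKM + 1) of each member, and log2 of the summed FPKM + 1 of each marker list, minus the mean of the 6 libraries of its experiment (colour, ending at 0.6 either way), with libraries in columns and AAV-TKT or Ribose left of the line in each panel. Vehicle replicate 2 is red and Ribose replicate 3 blue over most members, and the blood-cell marker sums differ far more between libraries than the members do.

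Genes next to the pathway were read from lists of neighbouring functions. Processing of the sterol-regulated factors held 6 genes, 0 of which passed the test in either experiment, with 2 positive and 4 negative differences in the AAV experiment and 3 of each in the ribose experiment. Groups did not overlap in the ribose experiment for 2 higher genes of 6, against 4.28% of all genes, and for 1 lower gene, against 5.35%. They overlapped for all 6 in the AAV experiment. In the ribose experiment, Mbtps2, the site-2 protease that frees the active factors, had 17.2, 11.7 and 15.3 FPKM in Ribose replicates 1, 2 and 3, against 10.9, 9.13 and 10.9 FPKM in Vehicle. All Ribose libraries were above all Vehicle libraries by a log2 difference of 0.47. Rnf139, an endoplasmic reticulum ubiquitin ligase, had 15.2, 12.2 and 14.5 FPKM in Ribose replicates 1, 2 and 3, against 11.6, 9.99 and 9.78 FPKM in Vehicle, higher without overlap (log2 difference 0.38). In the AAV experiment the libraries of the groups overlapped for both, with log2 differences of -0.0087 for Mbtps2 and -0.10 for Rnf139.

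The list of sterol transport and efflux held 20 genes, of which 19 were tested and 0 passed in each experiment, with 9 positive and 10 negative differences in the AAV experiment and 6 and 13 in the ribose experiment. Scarb1, the receptor for high-density lipoprotein, had 1.87 ± 0.296 FPKM in AAV-TKT and 2.97 ± 0.776 FPKM in AAV-GFP (SD, n = 3 each), and in the ribose experiment 3.00 ± 0.919 FPKM in Ribose and 5.00 ± 1.70 FPKM in Vehicle (SD, n = 3 each). Its groups overlapped in both, with log2 differences of -0.45 and -0.57. Abca1, a cholesterol exporter, had 16.2 ± 3.83 FPKM in Ribose and 20.9 ± 1.67 FPKM in Vehicle (SD, n = 3 each), with overlapping groups and a log2 difference of -0.37. Lrp1, a lipoprotein receptor, had 12.7 ± 3.40 FPKM in Ribose and 9.05 ± 0.952 FPKM in Vehicle (SD, n = 3 each), also overlapping, and a log2 difference of 0.42. The gene of this list without overlap in the ribose experiment was Npc2, a carrier of cholesterol in lysosomes, named after its values were seen, with 16.4, 18.2 and 19.0 FPKM in Ribose replicates 1, 2 and 3, against 20.3, 19.6 and 20.9 FPKM in Vehicle (log2 difference -0.18). Npc2 makes 5.26% of the 19 tested genes, against 5.35% of all genes that were lower without overlap. None of the list was without overlap in the AAV experiment, against 11.3% of all genes higher and 7.2% lower. The 8 genes of the isoprenoid branch, which turns farnesyl diphosphate to prenylation, dolichol and ubiquinone, had 6 positive and 2 negative differences in the AAV experiment and 3 and 5 in the ribose experiment, with 0 calls and overlapping groups for each. Dhdds, of dolichol synthesis, had the smallest p of these in the AAV experiment (log2 difference 0.15, unadjusted limma p of 0.0707), and Fnta, the shared subunit of the prenyl transferases, in the ribose experiment (log2 difference -0.21, unadjusted limma p of 0.152).

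Of 25 further genes of fatty acid activation, elongation and NADPH supply, 23 were tested and 0 passed in each experiment, with 14 positive and 9 negative differences in the AAV experiment and 9 and 14 in the ribose experiment. In the AAV experiment, groups did not overlap for 4 higher genes of the 23 (Acsl6, Thrsp, Acss2 and Lpin1), which is 17.4% against 11.3% of all genes, and for 2 lower ones (Fads3 and Elovl2), which is 8.70% against 7.2%. In the ribose experiment they did not overlap for 1, Elovl2, which was lower, and this is 4.35% against 5.35% of all genes. Acsl6, an acyl-CoA synthetase of neurons, had 57.1, 54.6 and 55.7 FPKM in AAV-TKT replicates 1, 2 and 3, against 45.9, 45.2 and 43.4 FPKM in AAV-GFP. The groups were well apart, with a log2 difference of 0.31 and an unadjusted limma p of 0.00113, but the adjusted p was 0.324. Neuron markers were higher on balance in AAV-TKT beside it, with 9 of 11 positive differences, a median of 0.20 and 0 calls. Without overlap, 6 of 11 were higher, against 11.3% of all genes, and 1 was lower, against 7.2%. The part of neurons in the result was not tested. Thrsp, a regulator of lipogenesis, had 10.0, 11.5 and 9.93 FPKM in AAV-TKT replicates 1, 2 and 3, against 9.02, 8.23 and 7.73 FPKM in AAV-GFP, without overlap (log2 difference 0.30). Fads3, a desaturase next to Fads1 and Fads2, had 15.6 ± 1.16 FPKM in AAV-TKT and 18.3 ± 0.264 FPKM in AAV-GFP (SD, n = 3 each), lower in AAV-TKT without overlap. Elovl2, an elongase of polyunsaturated fatty acids, had 1.57, 0.977 and 1.52 FPKM in Ribose replicates 1, 2 and 3, against 3.12, 1.99 and 3.93 FPKM in Vehicle. All Ribose libraries were below all Vehicle libraries, at levels near the floor of the test (log2 difference -0.75). In the AAV experiment it had 1.86, 1.08 and 1.78 FPKM in AAV-TKT replicates 1, 2 and 3, against 2.26, 2.40 and 2.03 FPKM in AAV-GFP, also lower without overlap (log2 difference -0.34), so this gene, which is not a member, was lower without overlap in both experiments, as Cyp51 was. Acss2, an acetyl-CoA synthetase, and Lpin1, a phosphatidate phosphatase, both named after their values were seen, had log2 differences of 0.17 and 0.11 in the AAV experiment.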

How the data were processed

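RNA was extracted from L4-6 ganglion neurons with the RNeasy Micro kit, and directional libraries were made with NEBNext Ultra II, per the labels' protocols. The submitters' processing notes name bcl2fastq 2.20, FastQC, Trim Galore and the GRCm38 build. The authors deposited 1 FPKM table per experiment, with 6 libraries each. No aligner, counter, strand setting or normalization is given in these sources, and overlapping genes are therefore uncertain. Read counts were not used here, so no counting error is given. Ensembl identifiers were matched to symbols (GENCODE M21), giving 13170 of 13178 and 21612 of 21650 genes.

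The 13178 and 13804 genes averaging 1 FPKM or more in a table were tested on log2(FPKM + 1) with limma 3.58.1 in R 4.3.3 (trended empirical Bayes, 3 libraries against 3, two-sided, Benjamini-Hochberg adjustment, threshold 0.05). A pseudocount of 1 understates the change of low genes. The difference between the 2 effects was tested over all 12 libraries and 12853 genes, and since the tables were made separately, levels set across them are descriptive. The procedure was tested on simulated data. The members and lists were chosen with earlier results of these data known. Named are members whose groups do not overlap, the 3 with the smallest p in each role group, the pairs Srebf1 and Srebf2, Insig1 and Insig2, Scd1 and Scd2, and Acaca and Fasn, and up to 3 genes of each related list. Some items the rule names are not reported here. The alternatives were another pseudocount, filters, scalings, weights, a replicate block and leaving out libraries. Leaving out replicate 2 of Ribose and Vehicle together was chosen after seeing the data.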

Additional observations from a re-analysis of the deposited data

How the results depend on the processing

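Members called stayed at 0 in every alternative run, and no member's log2 difference passed the test in any of them. Counts over all genes moved. In the AAV experiment, 2 genes were called, against 5 with a pseudocount of 0.1, 4 with a minimum of 5 FPKM, 23 with weights per library and 1 to 40 when 1 library was left out (40 without AAV-GFP replicate 2). In the ribose experiment, 1 gene was called, against 1 to 4 when 1 library was left out (4 without Ribose replicate 2) and 3 without replicate 2 of both groups. For the difference between the effects, 1 gene was called, against 2 with a pseudocount of 0.1, 1 to 3 when 1 library was left out and 12 without replicate 2 of Ribose and Vehicle. The cause of these moves was not tested. The median of the members ranged from -0.061 to 0.013 in the AAV experiment and from -0.127 to 0.066 in the ribose experiment. Cyp51, Dhcr7, Elovl1, Fads1, Fads2, Scd1 and Scd2 were negative in all 14 AAV and 15 ribose settings, with adjusted p of 0.167 to 0.746 and 0.582 to 1.00 for Cyp51. The replicate block and the filters leave each log2 difference as it was, so they could not turn a sign. How many of all genes kept their sign was not counted.

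Libraries with the same replicate number share no stated animal or batch. Their deviations from the group means correlated at 0.033, 0.071 and -0.014 in the AAV experiment and at 0.042, 0.357 and 0.160 in the ribose experiment. The numbers were not taken as a pairing, since no label states one. Even so, Ribose replicates 2 and 3 matched Vehicle replicates 2 and 3 best, in both directions. With a replicate block, the ribose SE fell from 0.198 to 0.079 for Fdps and from 0.206 to 0.083 for Acly. It did not fall for Acaca (0.176 and 0.183) or Lss (0.152 and 0.158). The ribose intervals given above are without the block, so for some members they include spread shared by replicate number. With a replicate block, 0 genes were called in the AAV experiment, and the smallest adjusted p of a member was 0.369 there and 0.582 in the ribose experiment. The read depth behind the FPKM values is unknown, so the counting error of low members such as Idi1 could not be given.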
